A study of Mus musculus with 2 samples.

Results

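Single cells at opposite ends of a score of circadian clock transcripts were compared at matched brightness of a clock reporter. Arntl-high cells carried much Arntl transcript (Arntl encodes BMAL1, the activator of the clock) and little Dbp and Tef. Dbp/Tef-high cells carried the reverse. The 2 groups held 191 cells each, 382 of the 768 cells of the series. They were selected on their own transcript levels: within each plate and sort gate, among cells with at least 1000 genes detected, the z-scores of log2(CPM + 1) of Dbp and Tef were averaged and subtracted from that of Arntl, and the top 25% were set against the bottom 25%. CPM is a count scaled to a fixed total, so that cells or sums of unequal depth can be compared. A total of 767 cells had enough genes to be scored, so each gate gave 24 cells per group, except the dimmest gate of plate 1, which gave 23.

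The cells were NIH3T3-Rev-VNP1-H2B-iRFP, mouse NIH3T3 fibroblasts carrying a Venus reporter of Nr1d1 and a near-infrared histone label, H2B-iRFP. The labels name no treatment, no synchronization and no other genotype. Both groups carried the same reporters, and all cells were taken at 95% confluency about 5 days after seeding. They were sorted singly into 2 plates of 384 wells in 4 gates of rising Venus brightness, called gates 1 to 4 here, and sequenced by FLASH-seq, which reads transcripts along their whole length. Plate 1 held only the high iRFP sort and plate 2 only the low one, so plate and iRFP sort cannot be told apart. The series has 1 reporter line and no label that names separate cultures, so all p-values measure the spread between gates of these 2 plates and not between cultures.

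In the mammalian clock, CLOCK and BMAL1 bind E-boxes and switch on the Per and Cry genes, Nr1d1, Nr1d2, Dbp and Tef. The PER and CRY proteins then shut that activity off. NR1D1 and NR1D2 (REV-ERB alpha and beta) repress genes with RORE elements, Arntl among them, so Arntl transcript peaks when Dbp and Tef are low. DBP, TEF and HLF are activators that bind D-boxes, and NFIL3 represses through the same element. Fibroblasts keep this loop running cell by cell, and neighbours drift out of phase when nothing synchronizes them.

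The promoters of 4 clock genes show elements through which these genes are known to be controlled. The windows run from 250 bases before to 50 after the RefSeq start site (GRCm38.p6), 5′ to 3′ on the gene's strand. Capitals mark an E-box (CACGTG) in Per1 and Bhlhe41, the D-box TTATGTAA in Per3 and the RORE core TAGGTCA in Arntl. Each motif was searched on both strands. Only windows with a match are shown here. Per1 and Arntl each have another RefSeq start site, and the window there holds no E-box for Per1 and no RORE core for Arntl. Per1 is shown on chr11:69098699-69098998 (plus strand), Per3 on chr4:151044616-151044915 (minus), Bhlhe41 on chr6:145865371-145865670 (minus) and Arntl on chr7:113207261-113207560 (plus).
Per1: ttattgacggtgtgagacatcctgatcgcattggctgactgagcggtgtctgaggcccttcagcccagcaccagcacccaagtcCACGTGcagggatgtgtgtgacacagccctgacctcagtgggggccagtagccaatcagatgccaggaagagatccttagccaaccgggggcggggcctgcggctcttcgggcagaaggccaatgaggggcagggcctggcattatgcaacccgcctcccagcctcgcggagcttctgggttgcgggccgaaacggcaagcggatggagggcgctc
Per3: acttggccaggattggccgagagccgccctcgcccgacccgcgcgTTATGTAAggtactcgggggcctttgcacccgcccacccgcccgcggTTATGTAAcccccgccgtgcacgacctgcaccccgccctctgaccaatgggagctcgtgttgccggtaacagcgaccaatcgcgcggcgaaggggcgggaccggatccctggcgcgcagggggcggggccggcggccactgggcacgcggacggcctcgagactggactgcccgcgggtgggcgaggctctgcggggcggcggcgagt
Bhlhe41: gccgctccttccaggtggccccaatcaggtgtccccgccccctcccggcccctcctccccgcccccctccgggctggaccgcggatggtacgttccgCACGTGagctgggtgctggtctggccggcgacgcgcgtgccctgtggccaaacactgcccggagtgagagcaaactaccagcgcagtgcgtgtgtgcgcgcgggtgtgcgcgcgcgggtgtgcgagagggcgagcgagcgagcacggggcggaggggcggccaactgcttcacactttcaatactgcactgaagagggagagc
Arntl: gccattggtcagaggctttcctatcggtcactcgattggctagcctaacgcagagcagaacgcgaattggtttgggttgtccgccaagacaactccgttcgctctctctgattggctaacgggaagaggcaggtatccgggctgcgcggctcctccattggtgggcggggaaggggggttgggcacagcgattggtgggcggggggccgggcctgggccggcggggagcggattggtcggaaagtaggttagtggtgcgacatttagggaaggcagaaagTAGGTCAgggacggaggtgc
The Per3 window held 2 D-boxes, starting at positions -205 and -158 from the start site. Of 11712 windows of this length for genes tested here, 0.461% held that D-box, 10.0% the E-box and 1.83% the RORE core. A match is a string of letters, not a shown binding site.

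The 3 genes that chose the cells differed as the choice required, and their values are a description with no test. Arntl ran from 28.6 to 79.1 CPM over the 8 sums of Arntl-high cells (1 sum per plate and gate, median 55.0) and from 0.0499 to 18.1 CPM over the 8 sums of Dbp/Tef-high cells (median 6.05). Dbp ran from 3.07 to 48.4 CPM in Arntl-high and from 41.2 to 111 CPM in Dbp/Tef-high sums. Tef ran from 13.1 to 129 CPM against 69.5 to 187 CPM. Because cells were ranked within a gate, a group name covers different levels in different gates: Arntl-high cells of gate 4 held 28.6 and 30.6 CPM of Arntl on plates 1 and 2, and those of gate 1 held 70.4 and 79.1 CPM. At single-cell level Arntl was counted in 190 of 191 Arntl-high and 96 of 191 Dbp/Tef-high cells, and Dbp in 150 and 191. The lowest score admitted to the Arntl-high group was 0.884 to 1.19 across gates, and the highest score left out was 0.837 to 1.05. At the other end the highest score admitted to the Dbp/Tef-high group was -1.27 to -0.528, and the lowest left out was -1.22 to -0.513.

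Nr1d1 and its reporter were compared next, since cells were ranked within gates of the Nr1d1 reporter. Nr1d1, the repressor whose reporter was sorted, ran from 68.5 to 1343 CPM in Arntl-high and from 44.6 to 1250 CPM in Dbp/Tef-high sums, higher in each brighter gate in both groups. Its log2 change, Arntl-high over Dbp/Tef-high, was 0.01 ± 0.13 (SE, edgeR quasi-likelihood test on 8 pairs of sums, adjusted p = 0.987), with 4 pairs higher and 4 lower. The reporter feature YFP changed by 0.16 ± 0.24 on the log2 scale (adjusted p = 0.797), iRFP by -0.07 ± 0.09 (adjusted p = 0.728) and Thra, which overlaps Nr1d1 on the opposite strand, by 0.13 ± 0.07 (adjusted p = 0.413). In gate 1, YFP was at 22.2 and 34.9 CPM in Arntl-high cells of plates 1 and 2 and at 8.62 and 9.77 CPM in Dbp/Tef-high cells, while in gates 2 and 3 it was lower in Arntl-high cells on both plates.

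Recorded Venus fluorescence did not pass its test: the group medians differed by -0.18 ± 0.28 on the log2 scale (SD over 8 pairs, lower in Arntl-high cells in 5 of them, exact sign-flip permutation test, two-sided p = 0.117, 0.234 adjusted over 6 measures). The iRFP signal differed by 0.11 ± 0.14 (exact p = 0.0781), forward scatter by 0.07 ± 0.14 (exact p = 0.242), total counts by -0.01 ± 0.07 (exact p = 0.570) and genes detected by 0.003 ± 0.020 (exact p = 0.672). The mitochondrial share averaged 8.07% in Arntl-high and 8.56% in Dbp/Tef-high cells, a difference of -0.49 ± 0.57 percentage points (exact p = 0.0547). None of the 6 passed after adjustment, with adjusted p from 0.234 to 0.672 where the smallest possible raw p is 0.0078. Each sum held 17414735 to 22075462 counts. All 9 fibroblast markers were detected, with summed levels of 17792 to 24984 CPM in Arntl-high and 20501 to 28312 CPM in Dbp/Tef-high sums. The leukocyte list summed to at most 1.45 CPM, the endothelial list to at most 1.81 CPM and the adipocyte list to at most 0.351 CPM in any sum, with Cd3e and Adipoq at 0. The epithelial list, where 2 of 5 genes passed the filter on low counts, summed to 29.8 to 64.7 CPM in Arntl-high and 16.2 to 49.2 CPM in Dbp/Tef-high sums.

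Beyond the 3 defining genes, the called genes included clock genes of the E-box and D-box arm, which were lower in Arntl-high cells, and cell division genes, which were higher. Most called genes were outside these lists: 34 of the 254 higher calls were S phase or G2/M genes, and 5 of the 88 lower calls were E-box and D-box clock genes. Of 13328 genes tested, 342 passed an adjusted p of 0.05, which is 2.57%. Higher in Arntl-high cells were 254 (1.91%) and lower were 88 (0.66%). Log2 changes of the called genes were 0.18 to 2.65 in size among the higher and 0.17 to 1.55 among the lower. At an unadjusted p under 0.05 there were 2308 genes. The count rests on both plates: without plate 1 no gene was called (1216 at an unadjusted p under 0.05), and without plate 2 there were 16. It was 141 without gate 4 of plate 2, and 3 without cells carrying a cell cycle signal, described below.

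Most of the E-box and D-box clock genes tested were lower in Arntl-high cells. Of 10 listed, 9 could be tested, 5 passed and all 5 were lower, against a background of 0.66%; the median log2 change of the 9 was -0.58, beside -0.01 over all genes tested. Those called were Per3, Nr1d2, Per1, Bhlhe41 and Bhlhe40. Without plate 1, or without plate 2, none of them was called. Nr1d1, described above, is also on this list and had its 1 positive change, at 0.01. The list was not lower in every pair: in gate 4 of plate 2 its median log2 difference was 0.02, with 5 of 9 genes higher in Arntl-high cells.

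Per3, a period gene with 2 D-boxes in the window printed above, was at 4.61 to 34.6 CPM in Arntl-high sums (median 18.0) and at 23.5 to 58.3 CPM in Dbp/Tef-high sums (median 41.8). It was lower in Arntl-high cells in 8 of 8 pairs, 2.63-fold on average (log2 change -1.39 ± 0.24 SE, adjusted p = 0.0133). The ranges of the groups overlap between gates, but within a gate Arntl-high cells were always the lower. Per3 lies within the annotated span of Camta1 on the same strand, and Camta1 itself changed by 0.08 ± 0.10 (adjusted p = 0.733).

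Nr1d2, the partner of Nr1d1 in repressing RORE genes, was at 5.74 to 43.1 CPM in Arntl-high sums (median 12.3) and at 16.3 to 42.9 CPM in Dbp/Tef-high sums (median 26.8). It was lower in 7 of 8 pairs, with a log2 change of -1.005 ± 0.185 (adjusted p = 0.0164). The exception was gate 4 of plate 2, the brightest, at 43.1 against 42.9 CPM. Whether Nr1d2 changed more than Nr1d1 was not tested, and the sort on Venus bears on Nr1d1 directly.

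Per1, the period gene with the E-box printed above, was at 12.9 to 35.5 CPM against 22.5 to 47.7 CPM, lower in 8 of 8 pairs (log2 change -0.58 ± 0.09, adjusted p = 0.0108). Per2 was at 1.23 to 18.6 CPM against 4.85 to 18.4 CPM and lower in 7 of 8 pairs, and did not pass (log2 change -1.01 ± 0.31, adjusted p = 0.108). Its estimate matched that of Nr1d2 (-1.005) with a wider error.

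Bhlhe40 and Bhlhe41 encode DEC1 and DEC2, repressors that compete at E-boxes. Bhlhe40 had the smallest SE of the 9 tested genes of the list: it was at 59.4 to 103 CPM against 76.9 to 137 CPM, lower in 8 of 8 pairs, by 1.35-fold (log2 change -0.43 ± 0.07, adjusted p = 0.0108). Bhlhe41 was at 6.33 to 31.0 CPM against 10.8 to 54.3 CPM, also lower in 8 of 8 pairs (log2 change -0.55 ± 0.10, adjusted p = 0.0143), with the call lost in 1 of 8 fits that leave out a pair (adjusted p up to 0.0513). In both groups Bhlhe41 was higher in each brighter gate.

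Ciart, a repressor of CLOCK and BMAL1, and Cry2 did not pass. Ciart was at 0.819 to 16.3 CPM against 1.26 to 27.8 CPM (log2 change -1.35 ± 0.44, adjusted p = 0.129), and Cry2 at 7.33 to 31.1 CPM against 16.7 to 32.7 CPM (log2 change -0.33 ± 0.18, adjusted p = 0.375). Hlf, counted in 2.09% and 3.14% of cells, was below the filter on low counts.

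**Figure D1:**
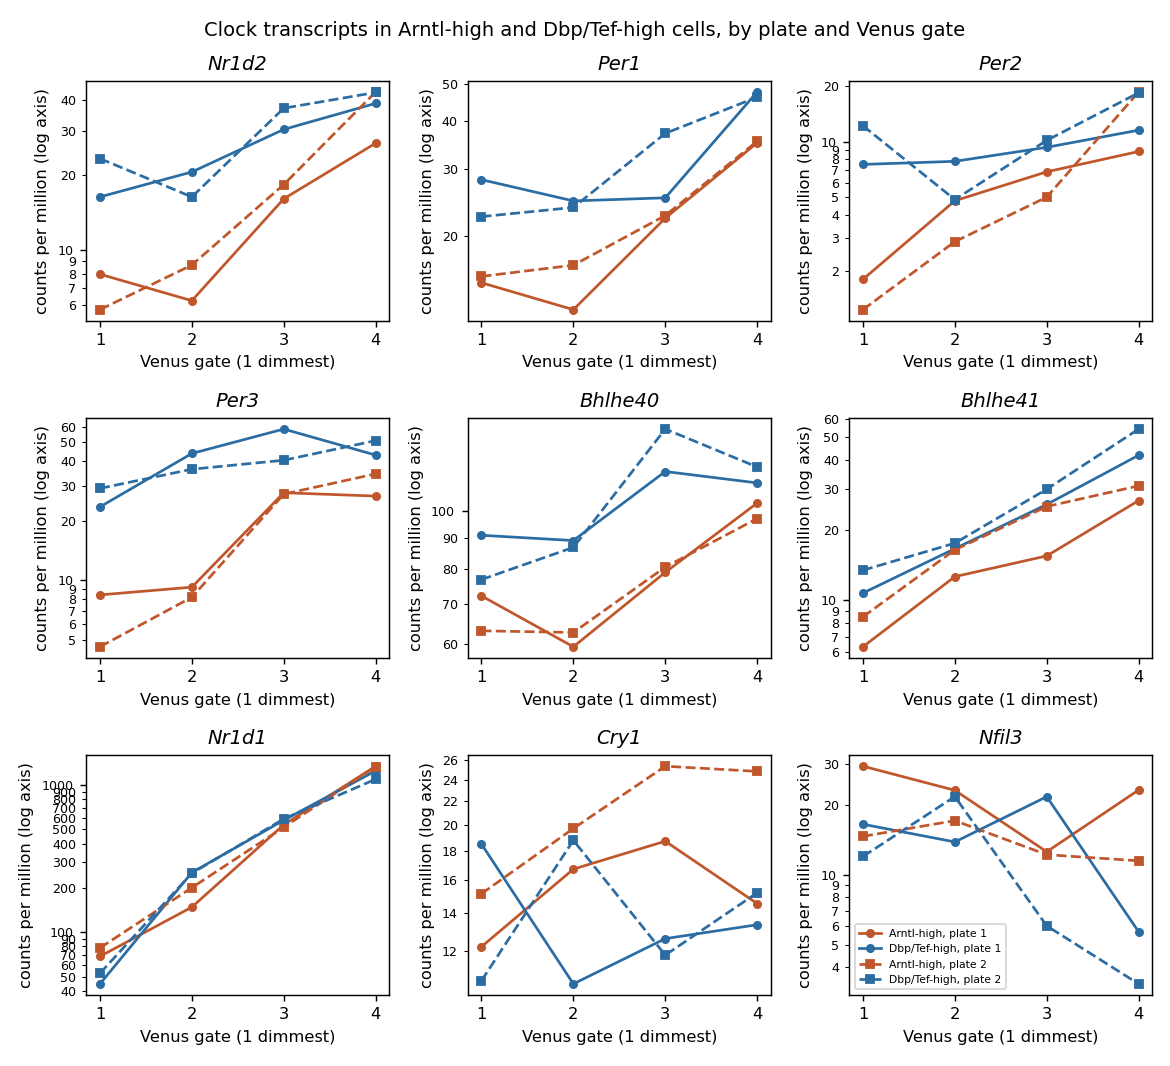
CPM (log axis) of 9 clock transcripts in the summed Arntl-high and Dbp/Tef-high cells of each Venus gate (1 dimmest, 4 brightest); each point is 1 sum of 23 or 24 cells and lines join the gates of a plate. Per1, Per3, Bhlhe40 and Bhlhe41 lie lower in Arntl-high cells in 8 of 8 pairs, whereas Nr1d1 follows the gate in both groups.

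On the opposite arm, no gene passed. Of the 5 RORE and positive-limb genes, 4 were tested and 0 were called, with 4 of 4 positive changes and a median of 0.30. Cry1, the cryptochrome whose transcript has both E-box and RORE control, was at 12.2 to 25.4 CPM in Arntl-high and 10.5 to 18.8 CPM in Dbp/Tef-high sums, higher in 7 of 8 pairs (log2 change 0.39 ± 0.16, adjusted p = 0.240). Nfil3, the D-box repressor, was at 11.5 to 29.2 CPM against 3.39 to 21.6 CPM and higher in 6 of 8 pairs (0.66 ± 0.28, adjusted p = 0.244). Rora, an activator at RORE elements, changed by 0.21 ± 0.11 (adjusted p = 0.371), higher in 5 of 8 pairs and lower in 3. Clock, the partner of BMAL1, was at 15.37 to 24.95 CPM against 15.7 to 21.9 CPM (log2 change 0.00 ± 0.10, adjusted p = 0.997). It was higher in 3 of 8 pairs and lower in 5. Npas2, which can replace Clock, was counted in 3.14% and 7.33% of cells and was not tested. Of the 4 tested, 2 had an unadjusted edgeR p under 0.05, DESeq2 called 0 and limma 1. Of all 13 tested clock genes, DESeq2 called 6 and limma 8, beside 5 with edgeR.

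Each side of the score was then used alone, so that the genes of the other side were no longer part of the choice. That the sides run opposite was known from earlier results of these data, so the tests below are not an independent check. When cells were ranked by Dbp and Tef alone, Arntl was higher in the cells low in Dbp and Tef in 8 of 8 pairs, at 37.7 ± 20.2 against 17.9 ± 10.1 CPM (SD over 8 sums; log2 change 1.08 ± 0.11 SE, edgeR adjusted p = 0.000155). When cells were ranked by Arntl alone, Dbp was lower in Arntl-rich cells in 8 of 8 pairs, at 31.7 ± 23.4 against 54.3 ± 25.9 CPM (log2 change -1.04 ± 0.20), and so was Tef at 71.2 ± 42.4 against 113 ± 40.0 CPM (-0.81 ± 0.14). Neither passed over all genes in edgeR (adjusted p = 0.204 for Dbp and 0.155 for Tef). Without the filter on low counts, Dbp had an adjusted p of 0.00206 and Tef of 0.000745, at changes of -1.04 and -0.80.

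The number of called genes was far from equal between these groupings. Ranking by Dbp and Tef alone gave 1984 called genes of 13293 (14.9%). Ranking by Arntl alone gave 0 of 13237 (0%), with 1045 at an unadjusted p under 0.05 in edgeR. Many cells had no Arntl count and tied in the ranking by Arntl. In gate 4 of plate 1, Arntl was counted in 69.4% of 72 cells without a cell cycle signal and 83.3% of 24 with one. On plate 2 it was 72.8% of 81 and 80.0% of 15 in gate 3. In gate 4 there it was 56.7% of 67 and 93.1% of 29. In these gates tied cells filled the low-Arntl side, in all results ranked by Arntl alone. Whether this bears on the gap in called genes was not tested. The 3 groupings share cells: of 382, 275 were in the same group under Arntl alone and 237 under Dbp and Tef alone. With Dbp and Tef alone, 6 of 9 E-box and D-box genes were called, all lower, Per2 among them (log2 change -1.01, adjusted p = 0.00227), and Nfil3 was called higher (1.22, adjusted p = 0.0310). Under Arntl alone the same list had a median of -0.28 with 0 called (4 at an unadjusted p under 0.05), and Nr1d2 was at -0.89 (adjusted p = 0.2015).

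**Figure D2:**
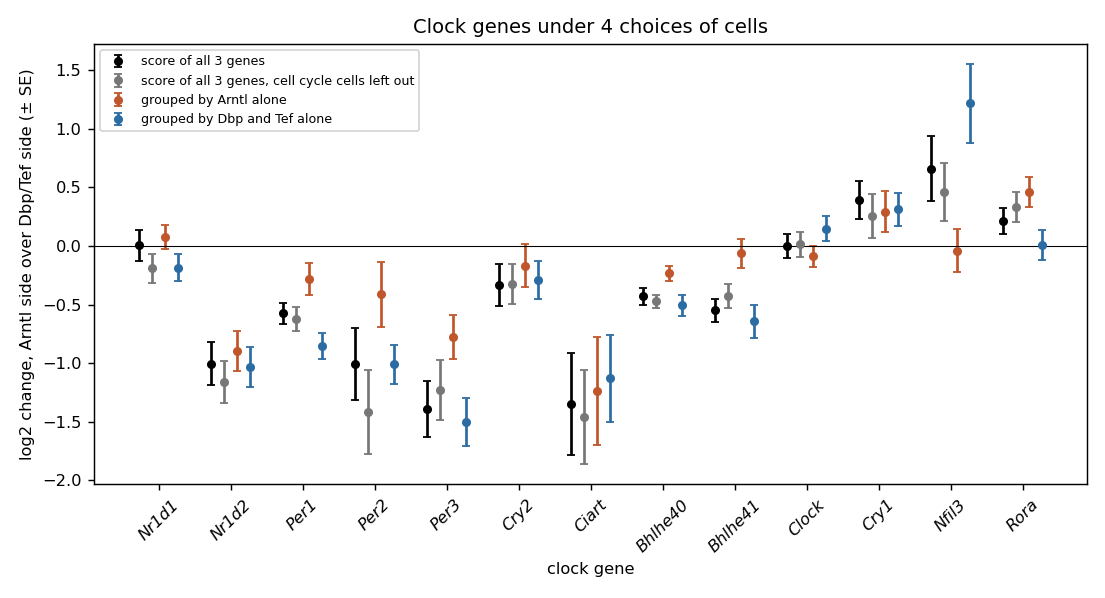
Log2 change with SE for the 13 tested clock genes under 4 choices of cells. Nr1d2, Per1, Per2, Per3, Cry2, Ciart, Bhlhe40 and Bhlhe41 are negative under every choice, and Nfil3 is positive in 3 of 4.

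The largest changes were in cell division genes. Of 54 G2/M genes tested, 18 were called, all higher in Arntl-high cells, with a median log2 change of 1.66. Of 43 S phase genes, 16 were called, all higher, with a median of 0.91. These stand beside a background of 1.91% higher. The pairs were unequal. Median log2 differences of the G2/M list ran from 0.05 in gate 3 of plate 2 (31 of 54 genes positive) to 3.815 in gate 2 of plate 1. Those of the S phase list ran from 0.07 in gate 3 of plate 2 (25 of 43 positive) to 1.46 in gate 3 of plate 1.

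Mcm5, a subunit of the replicative helicase, was at 13.2 to 31.2 CPM in Arntl-high sums (median 19.1) and at 0.572 to 11.6 CPM in Dbp/Tef-high sums (median 3.33). It was higher in 8 of 8 pairs with no overlap between the groups (log2 change 2.65 ± 0.40, adjusted p = 0.0102). Cenpa, the centromeric histone, was at 41.7 to 211 CPM against 1.67 to 44.7 CPM (2.48 ± 0.40, adjusted p = 0.0108). Mki67, the proliferation marker, was at 35.6 to 83.6 CPM against 1.00 to 28.5 CPM (2.35 ± 0.55, adjusted p = 0.0476), a call lost in 7 of the 8 fits that each leave out 1 pair (adjusted p of 0.0346 to 0.0994). A count of Mki67 was found in 45.03% of Arntl-high and 31.4% of Dbp/Tef-high cells. A sum can be higher through more cells with a transcript or through more of it per cell, and the sums do not tell these apart.

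The other genes among the 10 largest increases under the naming rule, which sets limits on level, detection and sign over pairs, were Kif20a and Anln (cytokinesis), Cdc20 (activator of the anaphase-promoting complex), Cdca8 and Tpx2 (spindle), Tk1 (thymidine salvage) and Shcbp1. Their log2 changes ran from 2.13 for Tk1 to 2.49 for Kif20a, higher in 8 of 8 pairs except Cdca8 in 7. Leaving out 1 pair at a time cost Cdca8 and Tk1 their call in 6 of 8 fits, Cdc20 and Tpx2 in 5, Shcbp1 in 4 and Kif20a in 1, and Anln kept it in all 8. Among list genes with the smallest p, Rrm1, which makes deoxynucleotides, rose by 1.05 ± 0.15 (adjusted p = 0.00575) and Mcm2 by 0.91 ± 0.13 (0.00607). Ncapd2 of condensin rose by 1.99 ± 0.26 (0.00565), Rangap1 by 1.23 ± 0.17 (0.00565), Cdca3 by 1.61 ± 0.22 (0.00575) and Ccnb2, a mitotic cyclin, by 2.04 ± 0.29 (0.00575).

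Elements of cell cycle promoters were looked for in the same windows. A pair is printed because Cenpa and Mcm5 stand for the mitotic and the S phase side: Cenpa on chr5:30666636-30666935 and Mcm5 on chr8:75109259-75109558, both plus strand, GRCm38.p6. Capitals mark CCAAT boxes (CCAAT or its complement), the cell cycle homology element TTTGAA in Cenpa and an E2F string (TTTGGCGC on the other strand) in Mcm5.
Cenpa: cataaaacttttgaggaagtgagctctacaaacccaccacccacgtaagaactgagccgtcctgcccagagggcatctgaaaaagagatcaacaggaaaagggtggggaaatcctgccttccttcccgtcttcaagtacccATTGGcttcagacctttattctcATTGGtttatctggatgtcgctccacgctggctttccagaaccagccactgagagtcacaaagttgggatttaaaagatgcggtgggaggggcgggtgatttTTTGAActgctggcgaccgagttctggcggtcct
Mcm5: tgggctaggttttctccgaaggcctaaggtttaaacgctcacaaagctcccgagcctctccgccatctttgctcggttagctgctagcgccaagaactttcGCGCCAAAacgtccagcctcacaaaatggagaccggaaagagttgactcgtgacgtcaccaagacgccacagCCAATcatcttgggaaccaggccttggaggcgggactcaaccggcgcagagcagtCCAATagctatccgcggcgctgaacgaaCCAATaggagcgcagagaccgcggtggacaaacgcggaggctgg
Among 249 windows of 209 called-higher genes, 53.0% held CCAAT, 21.3% held TTTGAA and 11.6% held TTTCCCGC or TTTGGCGC. Over the 11712 windows of genes tested the shares were 38.6%, 12.1% and 2.95%. E-boxes were in 12.0% of the called-higher windows and in 13.3% of the 90 called-lower windows, beside 10.0% of all. Of the 9 tested E-box and D-box clock genes, 7 had windows, and 3 of their 8 windows held the E-box and 7 the CCAAT box. Hlf, which was not tested, is left out of this count.

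More of the Arntl-high cells had a cell cycle signal. A cell was counted as such when the mean log2(CPM + 1) over the S phase list or over the G2/M list was at least 3, a limit chosen after the data were seen, with 73 cells lying within 0.25 of it. By that count 123 of 767 cells had a signal, 56 of 191 (29.3%) Arntl-high and 14 of 191 (7.33%) Dbp/Tef-high. The count was higher in Arntl-high cells in all 8 pairs, from 4 against 2 in gate 2 of plate 2 to 14 against 3 in gate 4 of plate 2. In gate 4, 11 of 24 and 14 of 24 Arntl-high cells had it on plates 1 and 2. Of the defining genes, Dbp averaged 29.5 CPM over gates in cells with a signal and 45.9 CPM in the others, lower in 8 of 8 gates, and Tef 67.4 against 98.0 CPM, also in 8 of 8. Arntl averaged 33.0 against 28.2 CPM and was lower in 3 of 8, which were gate 3 of both plates and gate 2 of plate 2. In gate 4 Arntl was at 21.2 against 8.71 CPM on plate 1 and 19.1 against 8.84 CPM on plate 2.

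The counts were also set out by each side of the score. Ranked by Dbp and Tef alone, 57 of 191 cells on the Arntl side and 13 of 191 on the Dbp/Tef side had it. Ranked by Arntl alone the counts were 42 and 21, and most of that gap lay in gate 4. There they were 11 against 4 on plate 1 and 12 against 1 on plate 2. Gates 1 to 3 gave 2 against 1, 3 against 1 and 1 against 2 on plate 1. On plate 2 they gave 5 against 3, 5 against 6 and 3 against 3. The median G2/M log2 change was 2.98 under Dbp and Tef alone and 0.36 under Arntl alone, and the S phase medians were 1.37 and 0.05. Whether the groupings differ in this was not tested.

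**Figure D3:**
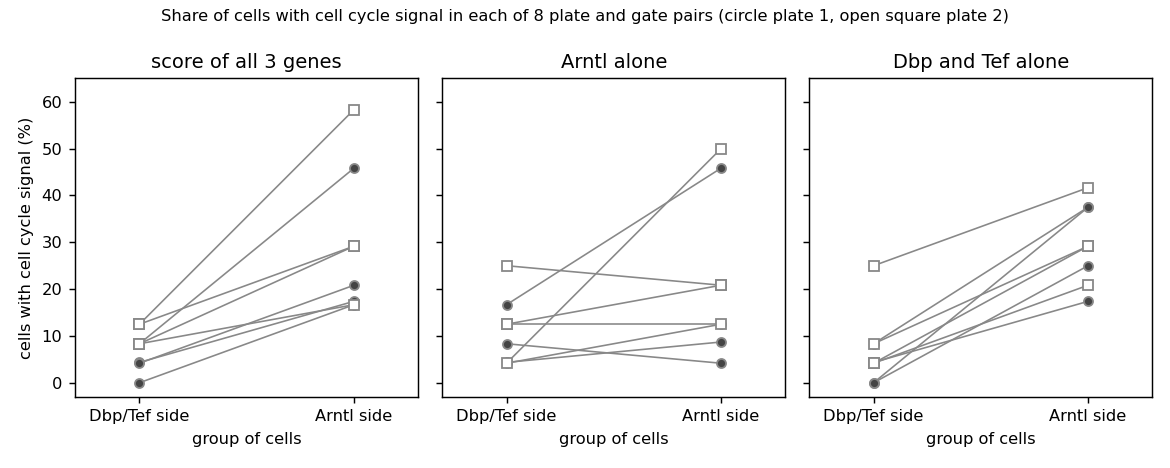
Share of cells with a cell cycle signal in the Dbp/Tef-side and Arntl-side cells of 8 plate and gate pairs, under 3 groupings; each line is 1 pair. Under the score of all 3 genes every line rises, with the highest Arntl-side shares at 45.8% and 58.3% in gate 4, and under Arntl alone some lines are flat or fall.

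The contrast was then repeated with these cells left out and the rest ranked again. Of 12897 genes tested, 3 were called (0.0233%), all lower in Arntl-high cells: Bhlhe40 (log2 change -0.47 ± 0.05, adjusted p = 0.0141), Nr1d2 (-1.16 ± 0.18, adjusted p = 0.0463) and Narf (-0.48 ± 0.07, adjusted p = 0.0323). Narf, named after its values were seen, binds prelamin A. It was also called with all cells (-0.44 ± 0.06, adjusted p = 0.0064, lower in 8 of 8 pairs). Per1 was at -0.62 (adjusted p = 0.0897), Per3 at -1.23 (0.298), Per2 at -1.42 (0.423) and Bhlhe41 at -0.43 (0.339). The median of the E-box and D-box list was -0.62 with 2 of 9 called, and those of the S phase and G2/M lists were 0.01 and 0.08 with 0 of 36 and 0 of 40 called (2 and 6 at an unadjusted edgeR p under 0.05). Because the cells were left out for their level of these 2 division lists, lower values of the division lists follow from the choice and are no test. Of the 254 higher calls, 245 could be tested again, and their median went from 0.52 to 0.12, with 190 still positive. For the 88 lower calls, 87 tested again, it went from -0.39 to -0.25, with 86 still negative. Of the 316 cells in the new groups, 291 were in the same group as in the contrast that gave these calls. Kept signs are therefore no independent check.

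The tests across the sides of the score gave like values without those cells. The 644 cells ranked here were among the 767 ranked before, so the likeness is no independent check. Arntl was 1.09 ± 0.12 higher on the log2 scale in cells low in Dbp and Tef (adjusted p = 0.00227, 8 of 8 pairs), while Dbp and Tef were -1.04 ± 0.18 and -0.78 ± 0.13 in Arntl-rich cells (adjusted p = 0.199 for both). Ranking by Dbp and Tef alone then called 207 of 12856 genes (1.61%), with 5 of 9 E-box and D-box genes lower, 0 of 36 S phase genes called (1 at an unadjusted edgeR p under 0.05) and 1 of 38 G2/M genes called, higher.

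**Figure D4:**
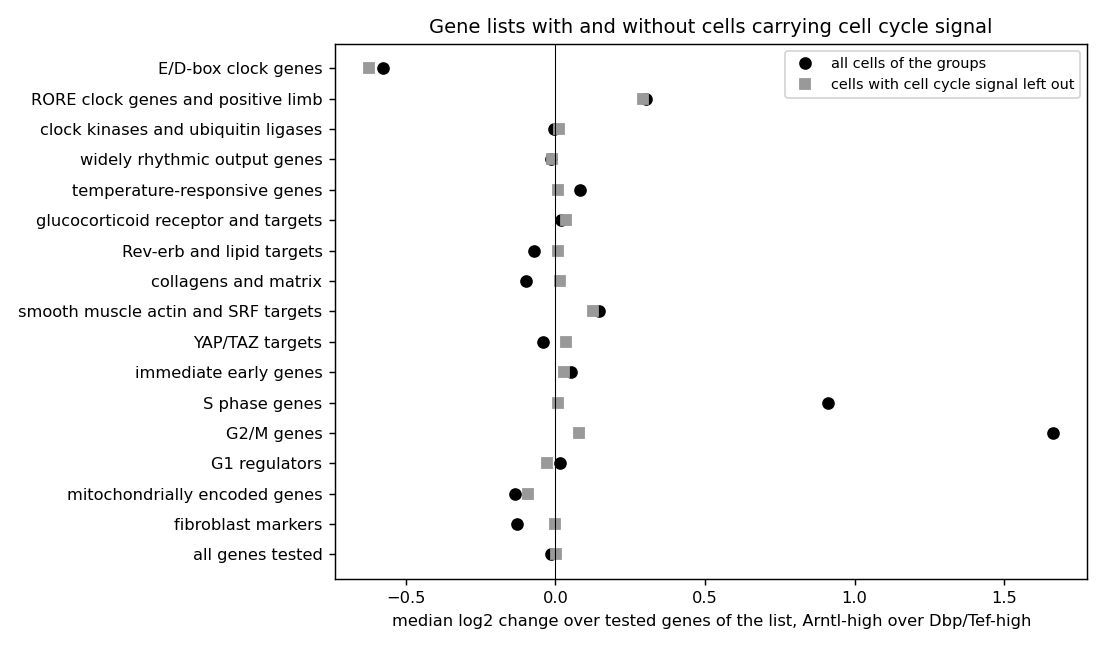
Median log2 change, Arntl-high over Dbp/Tef-high, over the tested genes of each list (at least 4 tested), with all cells of the groups and with cells carrying a cell cycle signal left out. The G2/M median goes from 1.66 to 0.08 and the S phase median from 0.91 to 0.01, which the choice of the cells by these 2 lists largely sets, and the E-box and D-box clock medians are -0.58 and -0.62.

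Under the same rule the 10 largest decreases in Arntl-high cells were Per3, Nr1d2, Per1 and 7 genes outside the clock lists. Slc46a3, a lysosomal transporter, was at 7.51 to 13.9 CPM against 14.2 to 23.4 CPM, with no overlap (log2 change -0.77 ± 0.12, adjusted p = 0.0108). Ldb2, a LIM-domain binding cofactor, was at 29.0 to 59.6 CPM against 52.6 to 86.7 CPM, lower in 8 of 8 pairs (-0.58 ± 0.08, adjusted p = 0.00565). C1s1, a complement protease, was at -0.80 ± 0.18 (adjusted p = 0.0424), and Plin4, which coats lipid droplets, at -0.65 ± 0.14 (0.0374). Rab36, a small GTPase, was at -0.63 ± 0.12 (0.0168), Asap3 at -0.57 ± 0.13 (0.0461), and Ccn2, a secreted matricellular protein and YAP/TAZ target, at -0.64 ± 0.13 (0.0287). Leaving out 1 pair at a time cost Plin4 and Asap3 their call in 7 of 8 fits, C1s1 and Ccn2 in 6 and Rab36 in 1, and Slc46a3 and Ldb2 in 0. With cell cycle cells left out none of these 7 was called, at -0.28 to -0.55.

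With cells ranked by all 3 genes, edgeR called no member of 9 other lists. Collagens and matrix genes had 0 of 30 called (median -0.10, 4 positive), Rev-erb and lipid targets 0 of 20 (-0.07), clock kinases and ubiquitin ligases 0 of 14 (0.00), glucocorticoid receptor and targets 0 of 11 (0.02), smooth muscle actin and SRF targets 0 of 14 (0.15), immediate early genes 0 of 21 (0.05), G1 regulators 0 of 14 (0.01), mitochondrially encoded genes 0 of 13 (-0.13, 0 positive) and fibroblast markers 0 of 9 (-0.13). Of the 142 distinct genes in these 9 lists, 31 had an unadjusted p under 0.05, DESeq2 called 11 and limma 6. Ranked by Dbp and Tef alone, where 14.9% of all genes were called, edgeR called members of 8 of these 9 lists, all but the clock kinases and ubiquitin ligases: 9 of 30 collagens and matrix genes were lower and 1 higher on the Arntl side, 6 of 15 smooth muscle actin and SRF targets were higher, and 3 of 20 Rev-erb and lipid targets, 3 of 13 mitochondrially encoded genes and 3 of 9 fibroblast markers were lower. Of the rest, 4 of 21 immediate early genes were higher and 1 lower, 4 of 14 G1 regulators were higher, and 1 of 11 glucocorticoid genes was higher and 2 lower. With cell cycle cells left out as well, where 1.61% of all genes were called, 3 of 30 collagens and matrix genes and 2 of 9 fibroblast markers were lower, and 2 of 14 SRF targets, 3 of 19 immediate early genes and 1 of 14 G1 regulators were higher. The values that follow return to cells ranked by all 3 genes with cell cycle cells kept, unless stated. There 2.57% of all genes were called, and YAP/TAZ targets had 1 of 14 called, Ccn2, which was lower. Ranked by Dbp and Tef alone, 2 of 14 YAP/TAZ targets were called, both higher on the Arntl side. Among 21 widely rhythmic output genes, 3 were called: Leo1, of the PAF1 transcription complex, and Hsph1, a heat shock chaperone, were higher (0.42 ± 0.07 and 0.27 ± 0.06, adjusted p = 0.0133 and 0.0321), and Dtx4, a ubiquitin ligase, was lower (-0.46 ± 0.08, adjusted p = 0.0164). Hsph1 lost its call in 7 of the 8 fits that leave out 1 pair and Dtx4 in 1. Of 11 temperature-responsive genes, Hsph1 and Hsp90aa1 were higher, the latter at 270 to 495 CPM against 197 to 304 CPM (0.47 ± 0.06, adjusted p = 0.00565). Hsp90aa1 was at 0.05 with cell cycle cells left out. Sphk2, which overlaps Dbp on the opposite strand, changed by -0.19 ± 0.08 (adjusted p = 0.235).

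Whether the contrast changed along the Venus axis was tested as an interaction. Besides the defining genes, 1 gene passed of 13328 (0.0075%): Agt, which encodes angiotensinogen, with a change of -1.02 ± 0.12 in log2 contrast per gate step (adjusted p = 0.0208). Agt was higher in Arntl-high cells in gates 1 and 2 and lower in gates 3 and 4, on both plates. In gate 1 it stood at 22.5 against 11.6 CPM on plate 1 and 47.6 against 17.4 CPM on plate 2. In gate 4 it stood at 11.6 against 40.6 CPM and 22.8 against 57.5 CPM. Its average over gates was near level (log2 change -0.23 ± 0.37, adjusted p = 0.818). For clock genes the gate slopes were 0.72 ± 0.18 for Per2, 0.57 ± 0.13 for Per3 and 0.42 ± 0.11 for Nr1d2, each a smaller deficit in brighter gates, and none passed (adjusted p = 0.364, 0.340 and 0.374). The separation of the groups by the defining genes also changed along the gates. Dbp had a slope of 0.83 ± 0.09 and Tef of 0.58 ± 0.08, each a smaller deficit in brighter gates. Arntl had a slope of 1.44 ± 0.28, a larger excess there. Whether the clock slopes follow this separation was not tested. By plate 0 of 13328 genes differed in the contrast in edgeR (0%), with 426 at an unadjusted p under 0.05.

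**Figure D5:**
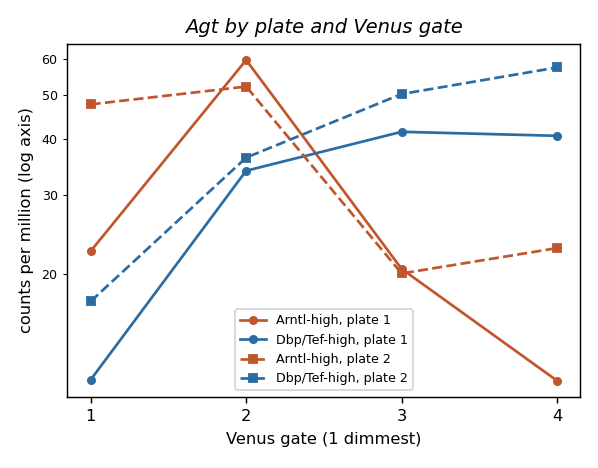
Agt in CPM (log axis) by Venus gate for Arntl-high and Dbp/Tef-high cells of each plate; each point is 1 sum of 23 or 24 cells. Arntl-high cells lie above in gates 1 and 2 and below in gates 3 and 4, reaching 11.6 CPM against 40.6 CPM in gate 4 of plate 1.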

How the data were processed

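The deposited table holds raw counts per gene and cell, all of them whole numbers whose sum varies from cell to cell. The submitters' processing notes name STAR 2.7.11a, SAMtools, bedtools and HTSeq and the builds GRCm39 and mm39; strand use and molecular identifiers are not given in the sources used here. The deposited sort record holds intensity values per cell in arbitrary units and the gate, per the file headers. No header names the iRFP sort. It was read from the image name recorded for each cell, which holds High RFP or Low RFP. Features without a symbol held 1.07% of counts.

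Counts of each group were summed per plate and gate (16 sums, 8 pairs) and tested with edgeR 4.0.16 in R 4.3.3 (TMM, filterByExpr, quasi-likelihood test, pair as block, Benjamini-Hochberg adjustment, threshold 0.05). The defining genes were left out of counts of calls, and adjusted p-values cover all genes tested. CPM values are per sum, unscaled. Per-pair signs used log2 CPM with a prior count of 2. Sort measures were tested by exact sign-flip permutation in scipy 1.17.1. The members and gene lists were chosen with earlier results of these data known. Named genes were, per direction, the 10 largest changes with an adjusted p under 0.05, mean log2 CPM of at least 3, a count in 20% of cells of either group and the same sign in 7 of 8 pairs, without predicted genes; both clock lists; the reporters and Thra; and up to 4 called genes per other list (1 such gene is left unnamed). On simulated counts of 13069 genes, 45.9% of genes changed by 0.5 and 69.8% of those changed by 1 (log2) were recovered, with 3 false calls. Alternatives covered scaling, filters, tools, groupings, left-out pairs, thinning to 150000 counts per cell (762 cells) and a stricter cell filter (at least 0.1 of the plate's median total, at most 25% mitochondrial counts, 762 cells). Wells were filled by single-cell sorting, so doublets were not called. Reads amplified by PCR may share a molecule, so counting error is understated. Sequences are RefSeq's, for GRCm38.p6.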

Additional observations from a re-analysis of the deposited data

Results flagged for a closer look

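Agt was marked because its contrast differed between Venus gates: the log2 difference between Arntl-high and Dbp/Tef-high cells changed by -1.02 per gate step (edgeR interaction, adjusted p = 0.0208), with 4 of 4 pairs positive in gates 1 and 2 and 4 of 4 negative in gates 3 and 4. Agt was counted in 34.8% of Arntl-high and 47.8% of Dbp/Tef-high cells in gate 1 of plate 1.

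Ccn2 was marked because 1 pair lay far from the others. In gate 1 of plate 1 its log2 difference was 0.31, at 90.2 CPM in Arntl-high and 72.1 CPM in Dbp/Tef-high cells, while the other 7 pairs ran from -1.07 to -0.42. The pair differences of 30 genes were examined in this way, and chance marks about 1 in 20 such sets of values.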

How the results depend on the processing

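The count of 342 calls was 860 with DESeq2, 138 with no replicate block, 168 with the top and bottom 50% of cells, 0 when cells were grouped by Arntl alone, 1984 when grouped by Dbp and Tef alone, 216 under a stricter cell filter and 3 with cell cycle cells left out, the last chosen after the data were seen. Leaving out 1 plate or 1 pair gave 0 to 312 calls: 0 without plate 1, 16 without plate 2 and 141 without gate 4 of plate 2. The 5 clock calls became 8 without a filter on low counts, 8 with limma, 3 with the top and bottom 10%, 2 with cell cycle cells left out, and 0 with no replicate block or when grouped by Arntl alone; left-out plates or pairs gave 0 to 5. The 342 genes kept their sign in each plate alone, which is no independent check since both plates chose them. Contrast by Venus gate gave 5 calls without the filter. Grouped by Arntl alone, Dbp (-1.04) and Tef (-0.80) passed without the filter. Genes detected differed by -0.002 by means. Over left-out plates and pairs Nr1d1 ran from -0.07 to 0.12 and YFP from -0.03 to 0.32. Nr1d1 was at -0.07 without plate 2, -0.07, -0.06 and -0.03 without single pairs, -0.04 with limma, -0.07 with the top and bottom 10%, -0.10 thinned, -0.18 by Dbp and Tef alone, -0.02 under the stricter filter and -0.19 without cell cycle cells. YFP was at -0.03, -0.04 and -0.08, iRFP at 0.04 and 0.03, Sphk2 at 0.08 by Arntl alone, Camta1 at -0.03 with the top and bottom 10%, Nfil3 at -0.04 by Arntl alone, and Ccn2 at 0.18 with the top and bottom 10%. Without cell cycle cells Anln was at -0.43, Cdca8 at -0.20, Tk1 at -0.32, Ncapd2 at -0.02 and Cdca3 at -0.23. The causes were not tested. With plate 1 left out 34 named genes lost their call, and with plate 2 left out 30.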
